A study of Mus musculus with 12 samples.

Results

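The genes of DNA replication and of entry into S phase were followed in MLE-12 cells, a mouse alveolar epithelial line, in 2 cell models of bronchopulmonary dysplasia. The 56 members are the rows of the expression table whose gene name is on a list of replication and G1/S genes, out of 34745 genes in the table. They fall into 7 roles. Licensing of origins has 12 members, helicase activation and the fork 7, polymerases and primase 9, and the clamp, its loader, RPA and lagging strand enzymes 11. Nucleotide supply has 5 members, G1/S cyclins, kinase and E2F factors 7, and chromatin and protein turnover in S phase 5.

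Each of 4 groups has 3 libraries, all at 24 h. LPS cells stayed at 21% oxygen with 100 ng/mL lipopolysaccharide, a component of the bacterial outer membrane. Hyp cells were held at 85% oxygen without LPS. LPS + M2-Exo and Hyp + M2-Exo cells had the same exposure and then 10 µg/mL of exosomes from MH-S alveolar macrophages that IL-4 had driven to the M2 state. MLE-12 is 1 immortalized line that carries the SV40 large T antigen under the SP-C promoter, and this antigen is known to bind Rb proteins and release E2F. All 4 groups share that background, and no library of untreated cells was analysed here, so every value compares one exposure with another. Nothing in the labels says that the 3 libraries of a group came from separate cultures, so p-values measure only the spread between libraries, which may be technical.

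In G1, the origin recognition complex (Orc1 to Orc6), Cdc6 and Cdt1 load the Mcm2 to Mcm7 helicase on DNA, a step called licensing, which geminin (Gmnn) blocks by binding Cdt1. Cyclin D with its kinases, then cyclin E with Cdk2, phosphorylate Rb and release E2F factors, which switch on many genes of this set. Mcm10, Cdc45 and the GINS complex then turn the helicase on, and polymerases alpha, delta and epsilon copy the strands with RPA, RFC and PCNA.

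Promoters of the members were read to show what they share beyond their names. RefSeq promoter windows on GRCm38.p6, 250 bases before to 50 after the start, were found for 46 of the 56 members, not for Ccnd1, Ccne2, Gins1, Gins2, Gins4, Gmnn, Mcm4, Pole, Prim2 and Rfc2. At least 1 of 4 E2F words, TTTGGCGC, TTTCCCGC, TTTCGCGC or TTTGCCGC on either strand, stood in the windows of 18 of these 46 genes (39.1%), against 704 of all 27025 genes of the promoter table (2.60%). A CCAAT word on either strand stood in 63.0% of the members and 41.1% of all genes. The CHR word TTTGAA, typical of genes of G2 and mitosis, stood on either strand in 15.2% of the members, in 20.2% of all genes and in 71.9% of 32 G2/M genes that are not members. For 5 members the 160 bases before the start are shown, 5′ to 3′, because 4 of them were higher in Hyp (Cdc6, Mcm5, Dtl and E2f8) and Mcm6 was lower. The E2F words are in capitals. The starts are those of RefSeq, and the bounds of the genes in the expression table differ for 3 of the 5. The Cdc6 gene begins farther upstream there, so that the whole Cdc6 stretch lies inside the gene as listed, while Mcm5 and Mcm6 begin farther downstream.
Cdc6, chr11:98907991-98908150, plus strand: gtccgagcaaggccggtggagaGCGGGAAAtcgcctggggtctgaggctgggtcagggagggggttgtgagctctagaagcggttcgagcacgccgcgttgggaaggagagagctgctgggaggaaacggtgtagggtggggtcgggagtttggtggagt
Mcm5, chr8:75109349-75109508, plus strand: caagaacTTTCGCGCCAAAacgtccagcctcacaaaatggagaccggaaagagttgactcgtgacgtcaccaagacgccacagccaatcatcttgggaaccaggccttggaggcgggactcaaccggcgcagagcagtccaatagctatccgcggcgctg
Dtl, chr1:191575545-191575704, minus strand: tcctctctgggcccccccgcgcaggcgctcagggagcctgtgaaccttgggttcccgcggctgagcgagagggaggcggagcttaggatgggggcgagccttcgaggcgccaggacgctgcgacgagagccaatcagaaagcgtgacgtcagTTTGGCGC
Mcm6, chr1:128359706-128359865, minus strand: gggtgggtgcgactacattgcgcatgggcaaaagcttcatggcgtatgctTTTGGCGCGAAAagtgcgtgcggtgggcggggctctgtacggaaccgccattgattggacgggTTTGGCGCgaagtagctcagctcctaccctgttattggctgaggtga
E2f8, chr7:48881597-48881756, minus strand: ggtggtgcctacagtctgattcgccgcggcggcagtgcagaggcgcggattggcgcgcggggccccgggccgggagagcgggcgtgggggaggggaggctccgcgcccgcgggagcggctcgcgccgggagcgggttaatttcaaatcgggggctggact
The Mcm6 stretch holds 3 E2F words, of which 2 overlap, the Mcm5 stretch 2 that overlap, Cdc6 and Dtl 1 each, and E2f8 none. A match describes letters in a window and is no proof of a site. The words stood in 11 of 29 members that were higher in Hyp in both comparisons below (37.9%) and in 4 of 7 that were lower (57.1%), so both directions held them.

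Total counts were 18700207 to 19185116 in LPS, 16021833 to 18505941 in LPS + M2-Exo, 22035335 to 24074616 in Hyp and 20231632 to 23414010 in Hyp + M2-Exo, so the Hyp libraries were deeper than every LPS library. Members had 203 to 17012 counts per library, and all 56 passed the filter on low counts in every comparison. As to the label of the line, Nkx2-1, Abca3, Krt8 and Sftpc were read in all groups, while Sftpa1 and Sftpd had at most 1 count and Krt18 at most 4 counts in any library. Of 14 AT II and epithelial markers, 10 could be tested, and 8 of these were lower in Hyp than in LPS and 2 higher. With M2-Exo 6 of the 10 were lower and 2 higher. Of 16 macrophage markers, 12 could be tested, and 9 of these were lower in Hyp and 2 higher in each contrast. Over all genes tested 37.8% were lower and 38% higher without M2-Exo, and 36.5% and 37.1% with it. Their summed level was 400 to 442 CPM in LPS, 316 to 355 CPM in LPS + M2-Exo, 99.5 to 105 CPM in Hyp and 79.6 to 117 CPM in Hyp + M2-Exo, with Csf1r at 101 to 111 CPM in LPS and 17.7 to 21.9 CPM in Hyp, and Chil3 and Cd163 at or near 0. The part of these markers in the results that follow was not tested. CPM here are read counts relative to library size (the usual CPM unit) after scaling by TMM, a factor that evens out differences in library composition.

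Hyp was first compared with LPS, both without M2-Exo. More members were higher in Hyp than lower, and among the 7 roles the medians were highest for the G1/S cyclins, kinase and E2F factors, helicase activation and licensing. Of the 56 members, 36 were higher in Hyp and 10 lower by edgeR's quasi-likelihood test at a Benjamini-Hochberg adjusted p under 0.05. Among all 13805 genes tested 75.8% passed, 38% higher and 37.8% lower, so the share of members that passed (82.1%) was near the background and the split by direction was not (64.3% higher, 17.9% lower). The median log2 fold change of the members was 0.37, against 0.01 over all genes tested. Hyp and LPS libraries did not overlap in CPM for 47 of 56 members, against 78.8% of all genes tested. The models differ in oxygen, LPS and depth together, and whether they were grown or sequenced side by side is not stated, so these cannot be told apart. In bulk RNA, a different share of cells in S phase and a different level of RNA per cell also cannot be told apart.

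The same contrast was then read in the libraries with M2-Exo, which are other libraries. Of the 56 members, 35 were higher in Hyp + M2-Exo and 11 lower than in LPS + M2-Exo, where 73.7% of 13660 genes passed, 37.1% higher and 36.5% lower. The median of the members was 0.33, against 0.01 over all genes tested. Libraries of the models did not overlap for 48 of 56 members, against 77% of all genes. In both contrasts 34 members were higher and 10 lower, and 0 passed in opposite directions. Rfc5 and Rpa1 passed only without M2-Exo, Pold3 and Lig1 only with it, and Gmnn, Mcm7, Gins1, Pola2, Pold2, Pcna, Fen1 and Rrm1 in neither. Passing in 1 contrast only does not show that these 4 differ between the contrasts. The interaction term, which tests that difference, did not pass for any of them, with estimates of -0.15 for Rfc5 (95% interval -0.27 to -0.04), -0.41 for Rpa1 (-0.87 to 0.06), 0.07 for Pold3 (-0.09 to 0.22) and -0.05 for Lig1 (-0.14 to 0.04), so for Rfc5 and Rpa1 it was not settled.

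**Figure D1:**
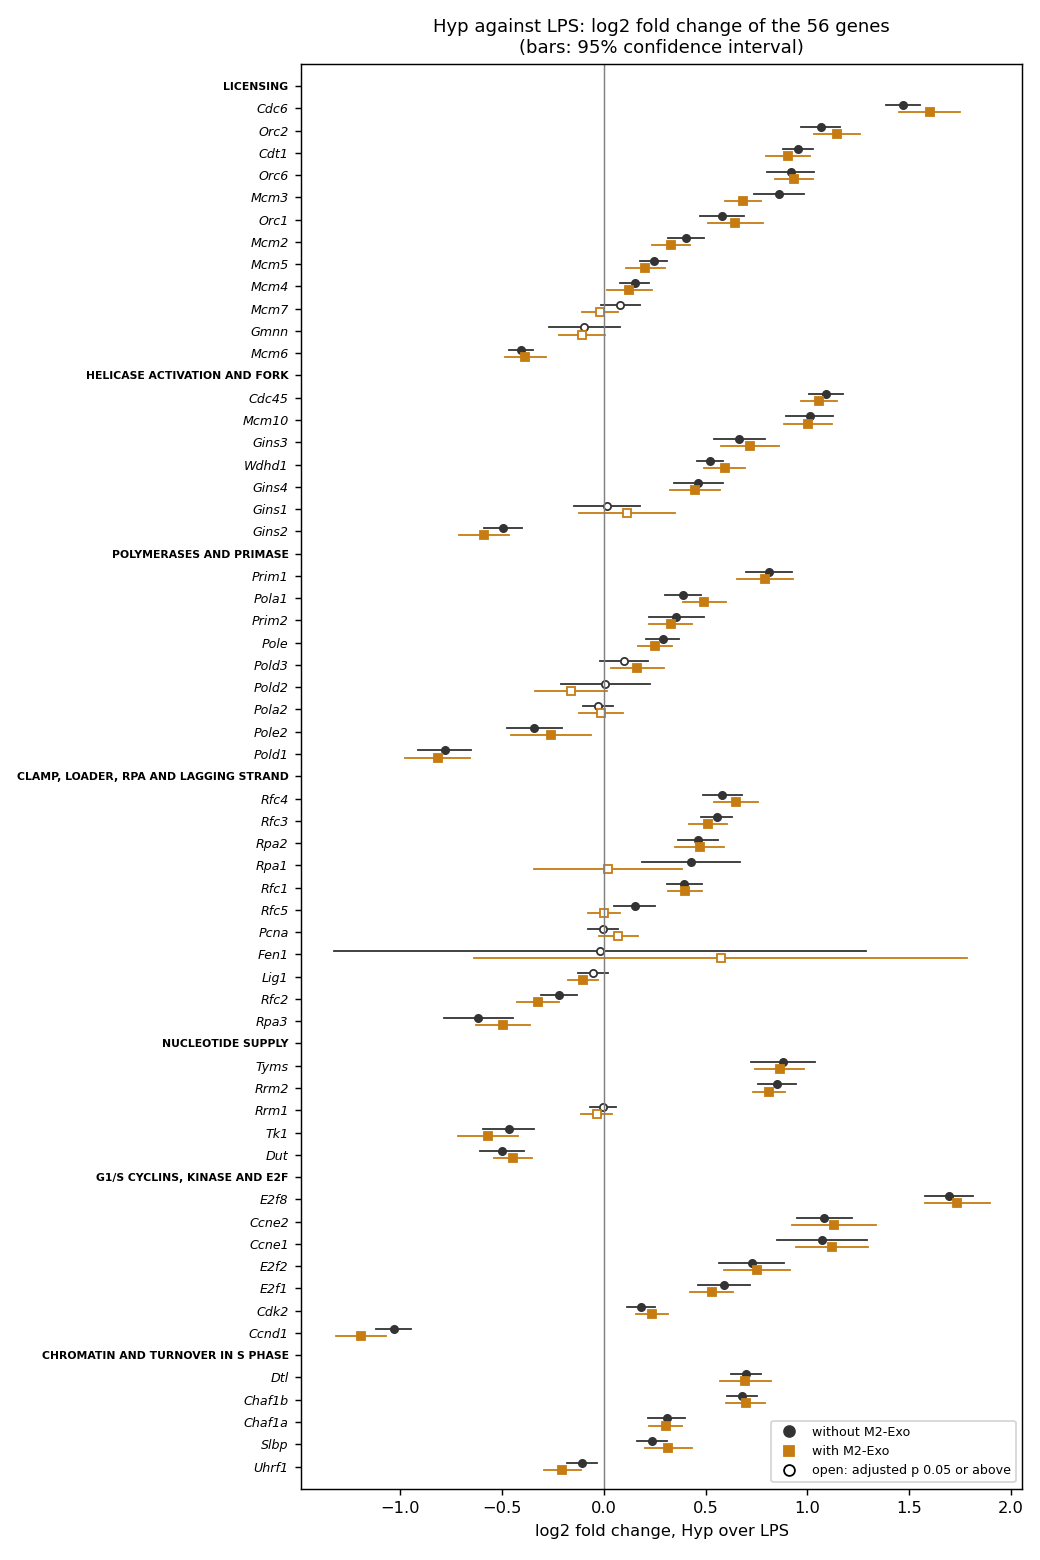
Log2 fold change of each of the 56 genes, Hyp over LPS, by role, without M2-Exo (dark circles) and with M2-Exo (orange squares). Bars are 95% confidence intervals and open symbols have an adjusted p of 0.05 or above. E2f8 and Cdc6 lie farthest to the right, Ccnd1 and Pold1 farthest to the left, and Fen1 has the widest intervals.

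Among the licensing factors, 9 of 12 were higher in Hyp and 1 lower in each contrast, with a median of 0.49 in both. These shares, 75% and 8.33%, compare with 38% and 37.8% of all genes tested without M2-Exo, and 37.1% and 36.5% with it. Cdc6, the loader of the helicase (chr11:98907801-98923940, GRCm38, plus strand), stood at 97.1, 95.3 and 97.7 CPM in LPS and at 261, 279 and 263 CPM in Hyp. It stood at 97.3, 93.5 and 94.3 CPM in LPS + M2-Exo and at 265, 285 and 315 CPM in Hyp + M2-Exo. Every library of the Hyp model lay far above every library of the LPS model. Its log2 fold change was 1.47 (SE 0.037, 2.77-fold, adjusted p = 3.44e-08) without M2-Exo and 1.60 (SE 0.064, 3.03-fold, adjusted p = 3.12e-07) with it, by edgeR.

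Cdt1, the partner of Cdc6 in loading, stood at 216, 216 and 221 CPM in LPS and 428, 408 and 428 CPM in Hyp, 1.94-fold higher (log2 0.95, SE 0.032, edgeR adjusted p = 1.03e-07). With M2-Exo it stood at 204 to 221 CPM in the LPS model and 383 to 410 CPM in the Hyp model, a log2 fold change of 0.90. Its inhibitor Gmnn did not pass. Gmnn was at 53.8 to 61.2 CPM in LPS and 51.3 to 59.2 CPM in Hyp, ranges that overlap, with log2 fold changes of -0.10 (95% interval -0.27 to 0.08) and -0.11 (-0.22 to 0.01). Of the origin recognition subunits, Orc2 was at 68.5 to 72.8 CPM in LPS and 143 to 153 CPM in Hyp (log2 1.06), Orc6 at 88.6 to 93.1 and 159 to 179 CPM (log2 0.92), and Orc1 at 43.9 to 45.7 and 64.3 to 68.1 CPM (log2 0.58).

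The Mcm2 to Mcm7 subunits form a ring with 1 copy of each, and their transcripts did not move together. Mcm3 was at 304, 324 and 333 CPM in LPS and 570, 619 and 555 CPM in Hyp, 1.81-fold higher (log2 0.86, SE 0.053, edgeR adjusted p = 2.26e-06). Mcm6 was at 442, 436 and 439 CPM in LPS and 331, 333 and 330 CPM in Hyp, 1.32-fold lower (log2 -0.41, SE 0.025, edgeR adjusted p = 2.42e-06). Both pairs of groups were apart, in opposite directions. With M2-Exo the log2 fold changes were 0.69 for Mcm3 and -0.39 for Mcm6. Mcm2 (log2 0.40 and 0.33) and Mcm5 (0.25 and 0.20) were higher in Hyp in both contrasts. Mcm4 passed with 0.15 and 0.12, where the second (edgeR adjusted p = 0.0429) was lost on leaving out any 1 of 5 libraries, LPS + M2-Exo replicates 1, 2 and 3 and Hyp + M2-Exo replicates 2 and 3 (adjusted p 0.0840 to 0.107). The same call was lost when counts were thinned to the smallest library (0.11, adjusted p = 0.0854). Mcm7 did not pass, at 0.08 (95% interval -0.01 to 0.18) and -0.02 (-0.11 to 0.07). Without M2-Exo it passed by edgeR when LPS replicate 3 was left out (log2 0.11, adjusted p = 0.0228). It passed there too when libraries were scaled by their size alone (0.17, adjusted p = 0.00353). By limma on log2 of FPKM it passed without M2-Exo in each setting (0.17, adjusted p 0.0098 to 0.0132).

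By the deposited FPKM, which divide by a gene length, the 6 subunits were not equal. The order between subunits depends on those lengths, which were not checked, so it does not measure how abundant each subunit was. By CPM, without length, Mcm2 (511) and Mcm7 (495) were highest in LPS and Mcm3 (321) was lowest. In LPS the deposited FPKM averaged 130 for Mcm4, 102 for Mcm5, 73.3 for Mcm6, 70.9 for Mcm7, 55.4 for Mcm2 and 46.4 for Mcm3. In Hyp Mcm4 (154) and Mcm5 (129) were again highest by FPKM, Mcm3 (89.6) came next, and Mcm6 (58.9) came last. By CPM Mcm2 (675) and Mcm3 (581) were highest in Hyp and Mcm6 (331) was lowest. As a share of the FPKM of the 6 subunits, Mcm3 held a mean of 9.70% in LPS and a mean of 15.2% in Hyp. Mcm6 held 15.3% in LPS and 9.99% in Hyp, so these 2 subunits exchanged places in the order by FPKM. With M2-Exo the mean shares were 9.99% and 14.5% for Mcm3, and 14.97% and 10.3% for Mcm6.

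**Figure D2:**
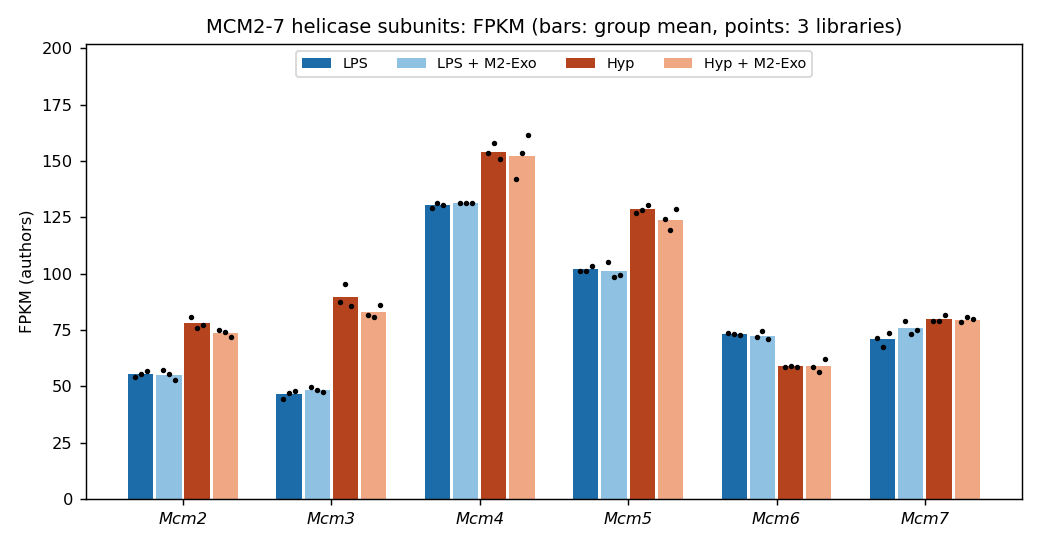
Deposited FPKM of the 6 helicase subunits (vertical axis) in the 4 groups. Bars are group means and points the 3 libraries. Mcm3 averages 46.4 in LPS and 89.6 in Hyp, while Mcm6 averages 73.3 in LPS and 58.9 in Hyp.

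Of the 7 genes of helicase activation and the fork, 5 were higher in Hyp and 1 lower in each contrast. These shares, 71.4% and 14.3%, stand beside 38% and 37.8% of all genes tested without M2-Exo, and 37.1% and 36.5% with it. Cdc45, which joins the helicase when it is switched on, was at 116, 117 and 121 CPM in LPS and 252, 259 and 244 CPM in Hyp, 2.13-fold higher (log2 1.09, SE 0.036, edgeR adjusted p = 1.01e-07). Mcm10, needed for the same step, was at 102, 104 and 109 CPM in LPS and 224, 211 and 200 CPM in Hyp, 2.02-fold higher (log2 1.01, SE 0.050, edgeR adjusted p = 6.71e-07). With M2-Exo the log2 fold changes were 1.06 and 1.00. For both genes the lowest Hyp library was above the highest LPS library.

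The 4 GINS subunits act as one complex, yet they differed. Gins3 was higher in Hyp (log2 0.67 and 0.72) and so was Gins4 (0.46 and 0.45). Gins2 was lower, at 104 to 107 CPM in LPS and 72.1 to 77.6 CPM in Hyp (log2 -0.50 and -0.59). Gins1 did not pass, at 0.02 and 0.11. Wdhd1, which ties polymerase alpha to the helicase, was higher (0.52 and 0.59).

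Polymerase subunits also split. Pold1, the catalytic subunit of polymerase delta (chr7:44532746-44548849, GRCm38, minus strand), was at 112, 108 and 115 CPM in LPS and 67.5, 59.9 and 67.3 CPM in Hyp. It was at 118, 107 and 112 CPM in LPS + M2-Exo and 68.9, 59.0 and 63.4 CPM in Hyp + M2-Exo. Every library of the Hyp model lay below every library of the LPS model. Pold1 was 1.72-fold lower (log2 -0.78, SE 0.057, edgeR adjusted p = 5.65e-06) without M2-Exo and 1.76-fold lower (log2 -0.82, SE 0.069, adjusted p = 1.38e-05) with it. Pole, the catalytic subunit of polymerase epsilon, was higher (0.29 and 0.25), and its partner Pole2 was lower (-0.34 and -0.26). Pola1, the catalytic subunit of polymerase alpha, was higher (0.39 and 0.49), with the primase subunits Prim1 (0.81 and 0.79) and Prim2 (0.36 and 0.33), while Pola2 did not pass (-0.03 and -0.01). The median of the 9 genes was 0.10 and 0.17.

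Among the 11 genes of the clamp, its loader, RPA and the lagging strand, 6 were higher and 2 lower without M2-Exo, and 4 higher and 3 lower with it. These shares were 54.5% and 18.2% without M2-Exo, against 38% and 37.8% of all genes tested. With M2-Exo they were 36.4% and 27.3%, against 37.1% and 36.5%. Pcna, the sliding clamp and a common marker of S phase, was at 267, 282 and 276 CPM in LPS and 273, 274 and 275 CPM in Hyp. The Hyp values lay inside the LPS range, with a log2 fold change of -0.01 (95% interval -0.08 to 0.07). With M2-Exo it was 0.07 (-0.02 to 0.17). Under scaling by library size alone Pcna passed as higher in Hyp both without M2-Exo (0.08, edgeR adjusted p = 0.0316) and with it (0.16, adjusted p = 0.00727). By limma on log2 of FPKM it passed in 1 of 3 settings without M2-Exo (no filter, adjusted p = 0.0410) and in all 3 with it (adjusted p 0.0176 to 0.0239). Of the loader subunits Rfc1, Rfc3 and Rfc4 were higher in both contrasts (0.40 to 0.65) and Rfc2 lower (-0.22 and -0.33). Of the RPA subunits, which coat single-stranded DNA, Rpa2 was higher (0.46 and 0.47) and Rpa3 lower (-0.62 and -0.49).

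Fen1, the flap nuclease of lagging strand maturation (chr19:10199132-10204169, GRCm38, minus strand), varied between libraries of 1 group more than any other member. It stood at 140, 146 and 54.4 CPM in LPS, 151, 53.4 and 144 CPM in LPS + M2-Exo, 218, 56.1 and 61.9 CPM in Hyp and 61.0, 215 and 245 CPM in Hyp + M2-Exo. Every group thus had libraries at 53.4 to 61.9 CPM and libraries at 140 CPM or above, with none between. Its log2 fold changes were -0.02 (95% interval -1.33 to 1.29) and 0.57 (-0.64 to 1.78), which shows neither a difference nor its absence. Tmem258, which overlaps Fen1, had 427 to 604 counts in the 12 libraries while Fen1 had 824 to 5270. The cause was not tested. Rpa1 also varied, at 277, 199 and 250 CPM in LPS and 225, 231 and 354 CPM in Hyp + M2-Exo.

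Nucleotide supply was divided evenly, with 2 members higher and 2 lower in each contrast. These shares, 40% each way, were near those of all genes tested (38% and 37.8% without M2-Exo, 37.1% and 36.5% with it). Rrm2, the regulated subunit of ribonucleotide reductase, was at 176, 159 and 169 CPM in LPS and 298, 308 and 303 CPM in Hyp, 1.81-fold higher (log2 0.85, SE 0.040, edgeR adjusted p = 5.34e-07). Tyms, which makes thymidylate from deoxyuridylate, was at 103, 84.3 and 96.1 CPM in LPS and 175, 179 and 168 CPM in Hyp, 1.84-fold higher (log2 0.88, SE 0.068, edgeR adjusted p = 7.75e-06). For both transcripts every Hyp library was above every LPS library. Tk1, which salvages thymidine, went the other way, at 136, 132 and 128 CPM in LPS and 97.1, 88.1 and 102 CPM in Hyp, 1.38-fold lower (log2 -0.47, SE 0.054, edgeR adjusted p = 8.96e-05). Dut, which supplies deoxyuridylate, was 1.42-fold lower (log2 -0.50). Rrm1, the large subunit of the reductase, stood at 519 to 539 CPM in Hyp and 529 to 531 CPM in LPS and did not pass (-0.01 and -0.04). With M2-Exo the values were 0.81 for Rrm2, 0.86 for Tyms, -0.57 for Tk1 and -0.44 for Dut.

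All 7 genes of the G1/S group passed in both contrasts, 6 higher and 1 lower. Since 75.8% of all genes tested passed without M2-Exo and 73.7% with it, 7 of 7 says little by itself. The split by direction was 85.7% higher and 14.3% lower, against 38% and 37.8% without M2-Exo and 37.1% and 36.5% with it. E2f8, an atypical E2F that represses E2F targets late in S phase (chr7:48866429-48881596, GRCm38, minus strand), had the largest fold change of the 56 members. It stood at 64.9, 67.4 and 71.5 CPM in LPS, 213, 216 and 231 CPM in Hyp, 69.8, 67.0 and 68.0 CPM in LPS + M2-Exo and 233, 205 and 246 CPM in Hyp + M2-Exo. No library of the LPS model came near one of the Hyp model. E2f8 was 3.24-fold higher (log2 1.70, SE 0.051, edgeR adjusted p = 6.74e-08) without M2-Exo and 3.33-fold higher (log2 1.74, SE 0.069, adjusted p = 2.89e-07) with it. The activators E2f1 (log2 0.59 and 0.53) and E2f2 (0.73 and 0.75) were higher by less.

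Cyclin D1 and the E cyclins, which partner the G1 kinases one after the other, went in opposite directions. Ccne1 was at 16.1, 16.1 and 13.0 CPM in LPS and 33.9, 31.4 and 29.8 CPM in Hyp, 2.10-fold higher (log2 1.07, SE 0.095, edgeR adjusted p = 1.78e-05). Ccne2 was at 45.3, 40.1 and 43.4 CPM in LPS and 89.8, 95.3 and 87.9 CPM in Hyp, 2.12-fold higher (log2 1.08, SE 0.058, edgeR adjusted p = 1.01e-06). Ccnd1, cyclin D1 (chr7:144929931-144939869, GRCm38, minus strand), was at 528, 514 and 544 CPM in LPS and 266, 249 and 260 CPM in Hyp. It was at 554, 580 and 601 CPM in LPS + M2-Exo and 271, 248 and 240 CPM in Hyp + M2-Exo. Ccnd1 was 2.05-fold lower (log2 -1.03, SE 0.037, edgeR adjusted p = 1.50e-07) without M2-Exo and 2.29-fold lower (log2 -1.19, SE 0.054, adjusted p = 5.21e-07) with it. The summed level of the group, of which Ccnd1 made the largest part in LPS, was 920 to 960 CPM in LPS and 957 to 972 CPM in Hyp. The other D cyclins, which are not members, did not follow Ccnd1 closely. Ccnd2 was lower by a small step (-0.14 and -0.24). Ccnd3 did not pass without M2-Exo (0.09) and was higher with it (1.24), but its libraries varied widely within groups. Ccnd3 was at 12.4 to 24.9 CPM in LPS and 14.3 to 35.6 CPM in Hyp. With M2-Exo it was at 8.94 to 26.9 CPM in the LPS model and 33.5 to 38.6 CPM in the Hyp model. The interaction term of Ccnd3 did not pass, so a difference between the contrasts was not shown. Cdk2, the kinase of cyclin E, was slightly higher (0.18 and 0.24).

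**Figure D3:**
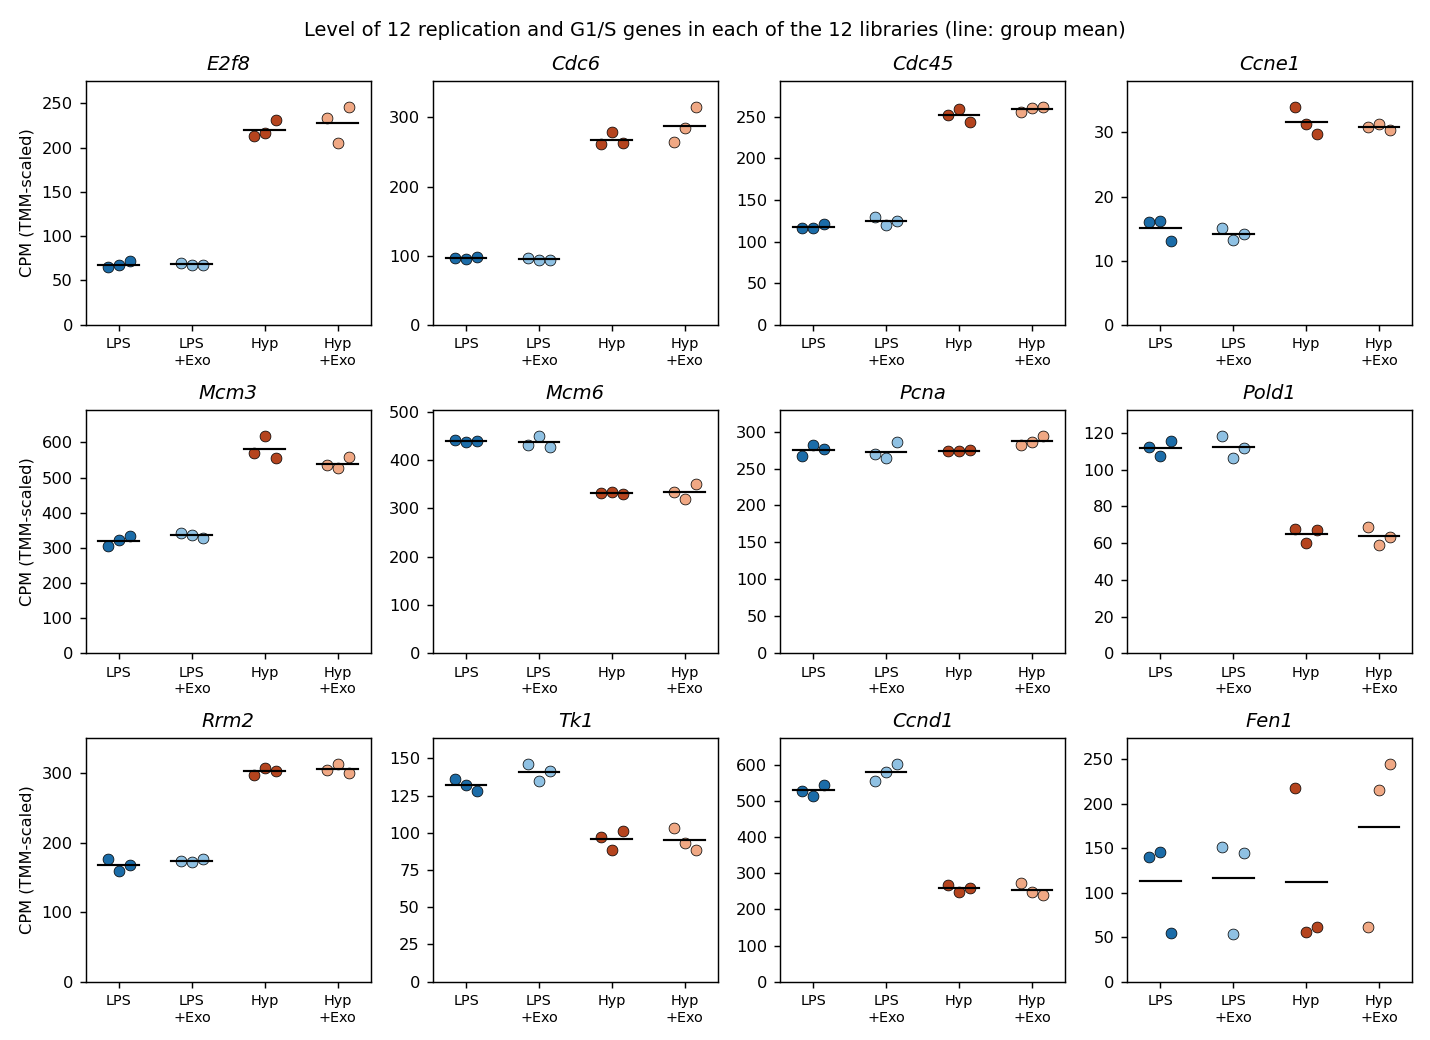
TMM-scaled CPM (vertical axes, from 0) of 12 members in each library of the 4 groups, with a line at the group mean. E2f8, Cdc6, Cdc45, Ccne1, Mcm3 and Rrm2 are higher in both Hyp groups, Mcm6, Pold1, Tk1 and Ccnd1 lower, Pcna is level and Fen1 splits within every group.

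Of the 5 genes of chromatin and turnover, 4 were higher and 1 lower in each contrast. For all genes tested the shares were 38% higher and 37.8% lower without M2-Exo, and 37.1% and 36.5% with it. Chaf1a (0.31 and 0.30) and Chaf1b (0.68 and 0.70), subunits of the complex that places histones on new DNA, were higher. Dtl, part of the ligase that destroys Cdt1 in S phase, was at 163 to 171 CPM in LPS and 266 to 276 CPM in Hyp (0.70 in both contrasts). Slbp, which stabilizes histone transcripts, was at 172 to 180 CPM in LPS and 203 to 211 CPM in Hyp (0.23 and 0.32). Uhrf1, which brings the maintenance methyltransferase to new DNA, was lower by a small step, at 332 to 350 CPM in LPS and 314 to 317 CPM in Hyp (log2 -0.11, edgeR adjusted p = 0.0140). This call was lost under scaling by library size alone (-0.02, adjusted p = 0.599). It was also lost by limma on log2 of FPKM in each setting (-0.02, adjusted p 0.608 to 0.679). With M2-Exo it was -0.20 (adjusted p = 0.00176), lost by limma on log2 of FPKM with pseudocounts (adjusted p 0.0518 to 0.0734).

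Summed over the 56 members, the level was 9813 to 9971 CPM in LPS, 10014 to 10209 in LPS + M2-Exo, 12012 to 12270 in Hyp and 11818 to 12534 in Hyp + M2-Exo. Per length, the median over the values of all members in all libraries of a group was 21.5 FPKM in LPS and 30.6 FPKM in Hyp. FPKM are scaled by library totals without TMM. Without M2-Exo, scaling counts by library size alone moved the members' median log2 fold change from 0.37 to 0.46.

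Other genes of the cycle give the setting. Over all genes tested, 38% were higher in Hyp and 37.8% lower without M2-Exo, and 37.1% and 36.5% with it. Of 40 further replication genes that are not members, 27 were higher and 6 lower in Hyp without M2-Exo, and 23 and 7 with it, with medians of 0.27 and 0.29. The topoisomerase Top2a was higher (0.28 and 0.31). Of 40 G2/M genes, 13 were higher and 20 lower in both contrasts, with medians of -0.08 and -0.12, and Mki67 was higher (0.21 and 0.32). Of 27 further G1/S regulators, 12 were higher and 9 lower without M2-Exo, and 12 and 11 with it. Their shares (44.4% and 33.3%, then 44.4% and 40.7%) were near those of all genes tested. Cdkn1a, the p21 inhibitor of cyclin-dependent kinases, was at 25.5 to 26.2 CPM in LPS and 191 to 202 CPM in Hyp, 7.57-fold higher (log2 2.92, SE 0.039, edgeR adjusted p = 8.02e-09). Cdkn1b, the related inhibitor p27, was at 150 to 156 CPM in LPS and 50.9 to 54.8 CPM in Hyp, 2.91-fold lower (log2 -1.54, SE 0.042, edgeR adjusted p = 4.78e-08). Of the other genes of cyclin-dependent kinase inhibitors among these 27, which are not all of 1 family, 4 were lower in Hyp in both contrasts. They were Cdkn1c (-2.65 and -2.51), Cdkn2a (-1.23 and -1.24), Cdkn2b (-1.87 and -1.99) and Cdkn2c (-1.09 and -1.10), and Cdkn2d was higher (0.28 and 0.29). These 5 were named after their values were seen. With M2-Exo the values were 3.07 for Cdkn1a and -1.37 for Cdkn1b, and Rb1 was higher by 0.26 and 0.32.

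**Figure D4:**
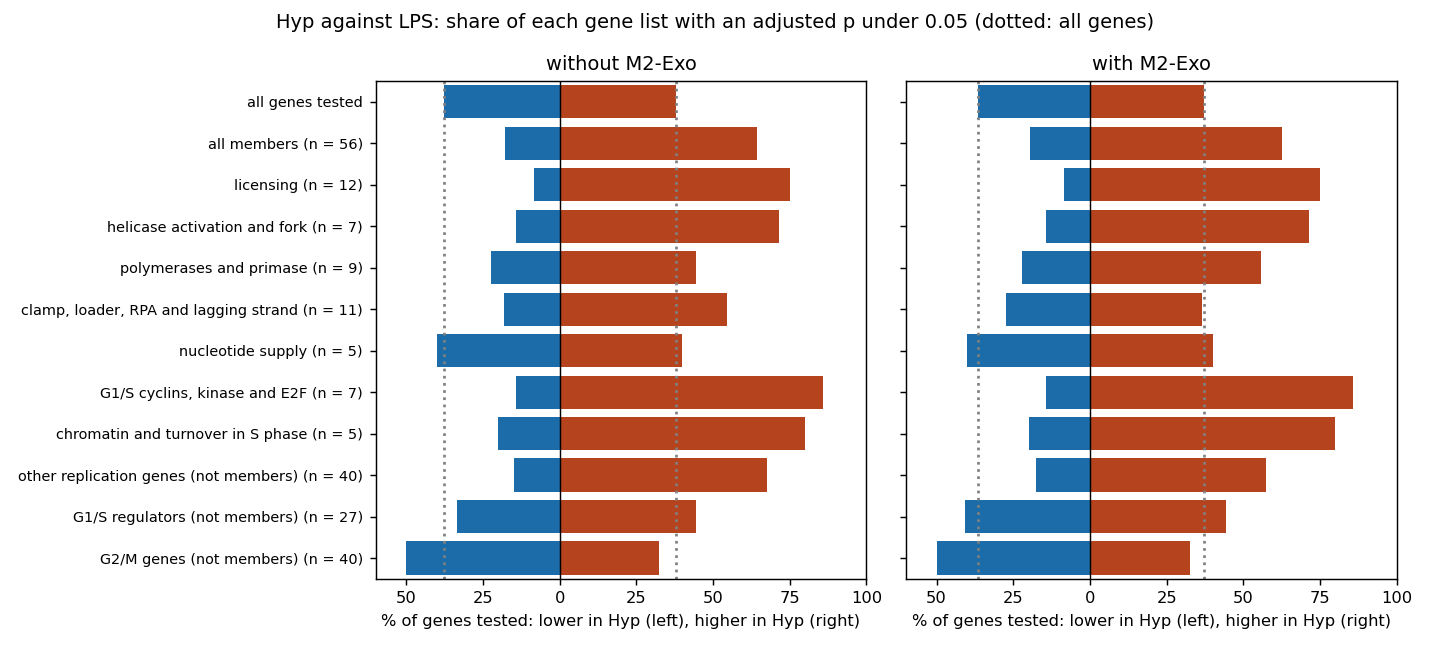
Share of each gene list with an adjusted p under 0.05 in Hyp against LPS, in percent of the genes tested, higher in Hyp to the right and lower to the left, without (left panel) and with M2-Exo (right panel). Dotted lines mark all genes tested, at 38% and 37.8% without M2-Exo and 37.1% and 36.5% with it.

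The second question was whether M2-Exo changed these genes in either model. In LPS, 0 of 56 members passed by edgeR, where 25 of 13353 genes did (0.187%, with 0.0524% higher and 0.135% lower). An unadjusted p under 0.05 was found for 2 members (3.57%, Ccnd1 and Orc6), against 11.1% of all genes. In Hyp, 0 of 56 passed, where 14 of 13815 genes did (0.101%, with 0.0507% in each direction). Here 8 members (14.3%) had an unadjusted p under 0.05, against 8.48% of all genes. They were Rpa3, Orc6, Dut, E2f1, Rfc5, Cdt1, Mcm3 and Gins2. DESeq2 also passed 0 members in each, where it passed 133 of all genes in LPS and 29 in Hyp. Libraries with and without M2-Exo did not overlap for 6 of 56 members in LPS, against 17.2% of all genes, and for 11 of 56 in Hyp, against 16%.

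Fold changes with M2-Exo were small. In LPS they ran from -0.09 for Ccne1 to 0.14 for Rpa1 on the log2 scale, with a median of 0.01. The 95% interval lay within 0.3 of 0 for 53 of 56 members, the others being Rpa1, Fen1 and Ccne1. In Hyp they ran from -0.27 for Rpa1 to 0.63 for Fen1, with a median of 0.01, and 52 of 56 intervals lay within 0.3 of 0, the others being Fen1, Rpa3, Pole2 and Rpa1. A larger effect than that is thus outside the interval for most members, while for Fen1 the intervals reached from -1.0006 to 1.0749 in LPS and from -0.82 to 2.07 in Hyp.

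Ccnd1 was the member with the lowest adjusted p in LPS. It was at 514 to 544 CPM without M2-Exo and 554 to 601 CPM with it, groups that do not overlap, a log2 fold change of 0.13 (SE 0.039, edgeR adjusted p = 0.301). Orc6 was at 88.6 to 93.1 CPM and 96.1 to 100 CPM (0.10, adjusted p = 0.407) in LPS, and at 159 to 179 and 180 to 190 CPM (0.12, adjusted p = 0.587) in Hyp. Beside these values, 0 of 11 macrophage markers passed in LPS with M2-Exo by edgeR. Of these markers 6 had an unadjusted p under 0.05 (54.5%, against 11.1% of all genes). With M2-Exo 9 of the 11 estimates were below 0 and 2 above, with a median of -0.31. The part of the macrophage markers was not tested. Among the members named whatever the test gave, the fold changes in LPS and Hyp were 0.07 and -0.11 for Mcm3, -0.05 and -0.11 for Cdt1, -0.03 and 0.10 for Cdc6, 0.12 and 0.10 for Tyms, and -0.03 and -0.09 for E2f1. For the rest of them, apart from Ccnd1 and Ccne1, they lay between -0.08 and 0.10 in both models. In Hyp, 1 member passed when 1 library was left out, which was Rpa1 without Hyp + M2-Exo replicate 3 (-0.52, adjusted p = 0.0109).

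Whether M2-Exo acted differently in LPS and Hyp cells was tested by an interaction term fitted to all 12 libraries. Of the 56 members 0 passed by edgeR, where 5 of 14187 genes did (0.0352%, with 0.0141% higher and 0.0211% lower). An unadjusted p under 0.05 was found for 3 members (5.36%, Rfc5, Ccnd1 and Mcm3), against 9.78% of all genes. DESeq2 passed 0 members and 78 of all genes. The estimates were -0.15 for Rfc5, -0.16 for Ccnd1 and -0.17 for Mcm3. The 95% interval lay within 0.5 of 0 for 54 of 56 members, all but Fen1 and Rpa1.

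**Figure D5:**
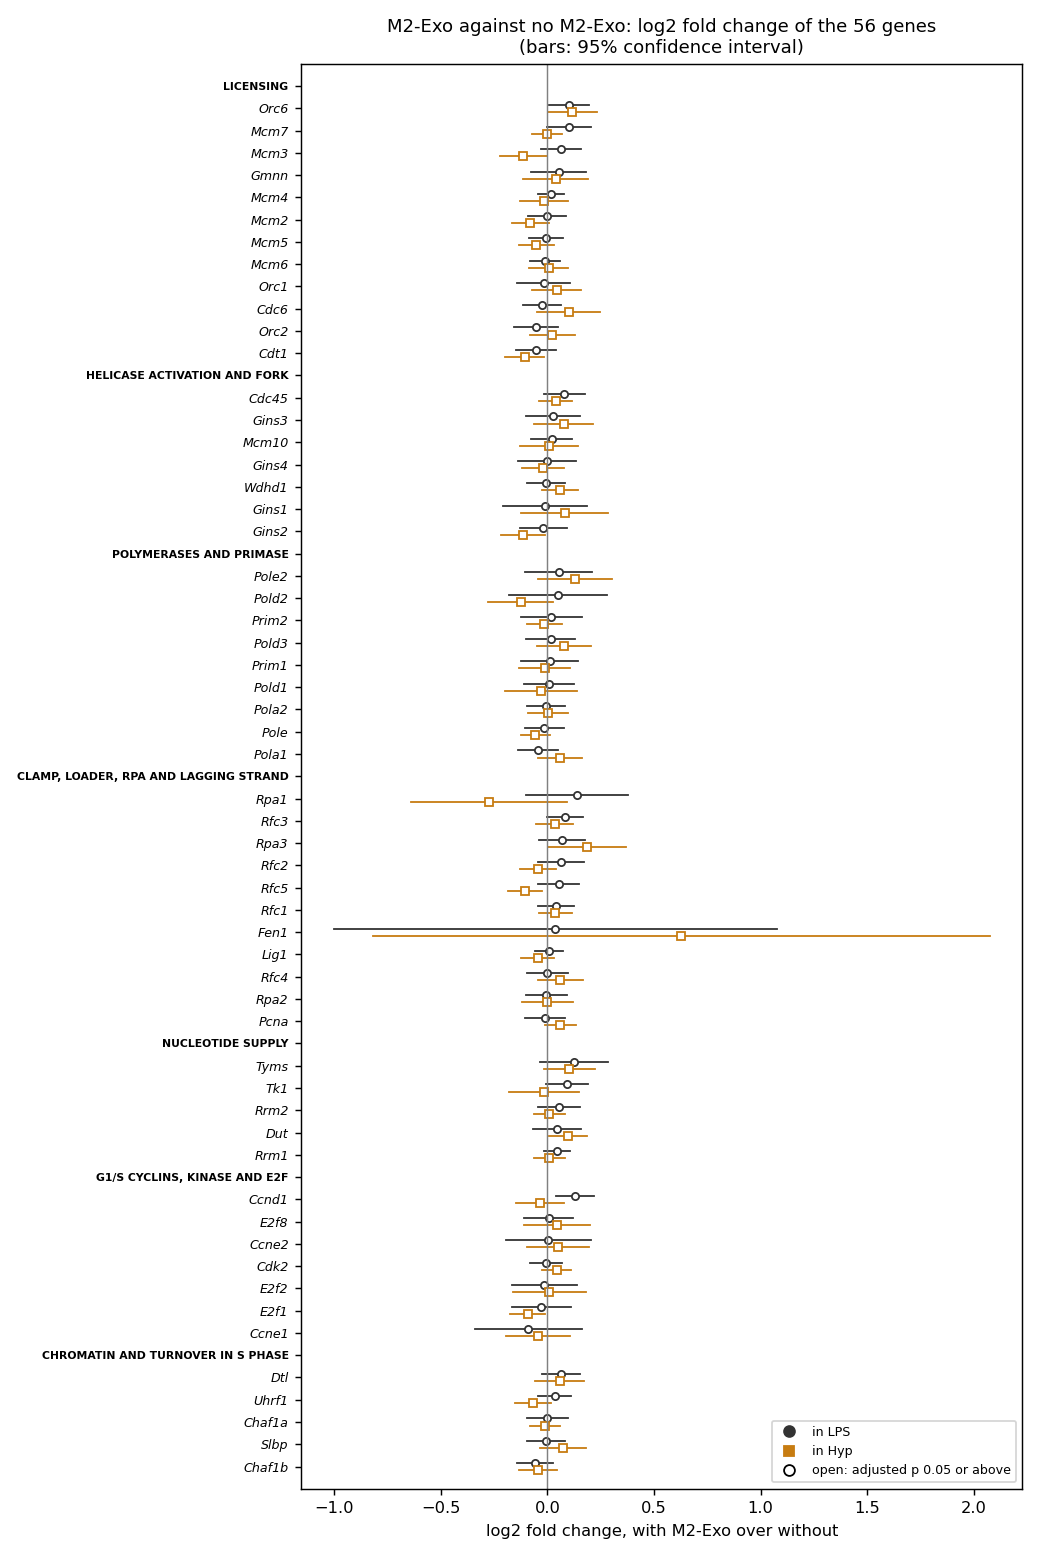
Log2 fold change of each of the 56 genes with M2-Exo over without, in LPS (dark circles) and in Hyp (orange squares), with 95% confidence intervals. All symbols are open because no adjusted p is under 0.05, and most estimates lie within 0.14 of 0.

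Some members may share reads with other loci, though no reads were examined. Of the 56, 20 overlap another gene of the table by the bounds of the genes. For 12 the whole count of the overlapping genes equalled 5% or more of the member's own count (Orc2, Mcm7, Cdc45, Gins2, Rfc4, Rfc5, Fen1, Lig1, Tk1, Ccne2, Ccnd1 and Chaf1a). That ratio was largest for Rfc4 (306%), Gins2 (183%), Rfc5 (122%) and Ccne2 (88.9%). The counting is not stated to use strand, so reads in an overlap cannot be told apart. In GENCODE M21, more than 5% of the 75-base stretches of 5 members also occur in transcripts of other genes, at 13.8% for Pcna, 9.49% for Mcm7, 9.05% for Uhrf1, 7.34% for Rpa3 and 6.10% for Pole2. The pseudogene Pcna-ps2 had 1991 to 3439 counts, or 48.6% of the counts of Pcna over the 12 libraries. Levels of these 5 genes are uncertain to that extent.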

How the data were processed

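RNA from 12 libraries of MLE-12 cells was sequenced as poly(A) libraries. The authors deposited a table of 34745 genes with raw read counts and FPKM. The submitters' processing notes name HISAT2 2.0.4, StringTie 1.3.0, edgeR and GRCm38. The deposited FPKM followed from the counts, gene length and library total to a relative 7.16e-05 for genes with 10 counts or more. Counts were fitted in R 4.3.3 with edgeR 4.0.16 (filterByExpr, TMM, quasi-likelihood F test, Benjamini-Hochberg over all genes tested), using the 6 libraries of each comparison, or all 12 for the interaction. Members were read from these fits, and 95% intervals used the fit's own degrees of freedom. The biological coefficient of variation was 8.78% to 9.41%. The fit was tested on simulated data with known changes.

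The members, lists and comparisons were chosen with earlier results of these data known. Named genes were, in each comparison of Hyp with LPS, the 12 members with the largest absolute log2 fold change among those that passed with groups apart in CPM, the 8 such members in the M2-Exo comparisons (there were 0), and a list of 20 members named whatever the test gave, with Cdkn1a, Cdkn1b, Mki67, Top2a and Rb1. A further gene of this rule is not reported here. Members named beside these, such as Fen1 and Rpa1, were named after their values were seen. Promoters come from RefSeq (GRCm38.p6). No 2 libraries of a group agreed within sampling noise. Alternatives were other scalings and filters, DESeq2 1.42.0, limma 3.58.1 on log2(FPKM + 1) and log2(FPKM + 0.1), thinning to 16021833 counts, all 12 libraries in 1 fit, a replicate block and leaving out each library. Totals of 16021833 to 24074616 counts limit precision by counting error only.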

Additional observations from a re-analysis of the deposited data

How the results depend on the processing

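In Hyp against LPS, 46 to 49 members passed without M2-Exo and 44 to 47 with it over the settings on all libraries, against 46 in both as reported, and 46 to 47 and 43 to 47 on leaving out 1 library. Scaling by library size alone gave 40 higher and 9 lower without M2-Exo, and 37 and 9 with it. It moved the median of all genes from 0.01 to 0.10, and limma on log2(FPKM + 0.1) moved it to 0.11. The members' median of 0.37 without M2-Exo became 0.46 by library size alone, 0.44 by limma on log2(FPKM + 1) with or without a filter, 0.46 on log2(FPKM + 0.1), and 0.33 to 0.40 without 1 library. With M2-Exo, 0.33 became 0.42, 0.40 and 0.42. The median M2-Exo effect in LPS was 0.0019 to 0.0256 and its difference between models -0.0284 to 0.0184 without 1 library, and members that passed in Hyp numbered 0 to 1 (Rpa1).

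Signs near 0 turned. Pcna, -0.01 without M2-Exo, was 0.0844 by library size alone, 0.0037 with 10 counts in every library, 0.0836, 0.0845 and 0.0836 by limma, and -0.0340 to 0.0087 without 1 library. Mcm7, -0.02 with M2-Exo, was 0.0713 by library size, 0.0708, 0.0717 and 0.0708 by limma, and -0.0482 to 0.0064 without 1 library. In LPS the M2-Exo effect on Ccne2 was -0.0029 by library size and -0.0056, -0.0070 and -0.0056 by limma, and that on E2f8 -0.0002 by library size and -0.0038 when thinned. In Hyp that on Mcm7 was 0.0026 with 12 libraries in 1 fit, and the interaction of Gmnn 0.0009 with no filter.

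Leaving out 1 library gave these ranges of effects that turned sign. In LPS they were Ccne2 -0.0687 to 0.0812, E2f1 -0.0717 to 0.0250, E2f8 -0.0279 to 0.0414, Mcm2 -0.0288 to 0.0283, Mcm5 -0.0379 to 0.0094, Mcm6 -0.0337 to 0.0039, Pcna -0.0462 to 0.0106 and Slbp -0.0312 to 0.0174. In Hyp they were Ccne1 -0.0865 to 0.0076, Ccne2 -0.0085 to 0.104, E2f8 -0.0167 to 0.1146, Mcm4 -0.0606 to 0.0315, Mcm6 -0.0323 to 0.0365, Mcm7 -0.0121 to 0.0145, Rrm2 -0.0101 to 0.0192 and Tk1 -0.0796 to 0.0310. For the interaction they were Ccne1 -0.0025 to 0.1427, Ccne2 -0.0286 to 0.1232, E2f8 -0.0149 to 0.1154, Gmnn -0.0539 to 0.0592, Mcm4 -0.0683 to 0.0180, Mcm6 -0.0145 to 0.0535 and Tyms -0.0788 to 0.0596. The cause was not tested.

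Libraries of the same number did not deviate together (correlations -0.015 to 0.063), and not every library matched its own number best. With the replicate block 46 and 47 members passed between the models, and 0 in each M2-Exo comparison and for the interaction, where 6, 8 and 3 genes of all passed against 25, 14 and 5 as reported (133, 29 and 78 by DESeq2, 12 and 2 with 12 libraries in 1 fit). Other settings that moved these counts by over 1.5 times were limma on log2(FPKM + 0.1) in LPS (12), limma on log2(FPKM + 1) with no filter in Hyp (4) and for the interaction (11), no filter on counts for the interaction (13) and thinned counts for the interaction (3). In each of these settings 0 members passed.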
